A study of Danio rerio with 6 samples.

Results

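Retinoic acid is made from vitamin A in a pair of oxidation steps, and the 4 genes described here encode enzymes of those steps or of their reversal. They were taken as listed genes, aldh1a2 (GeneID 116713), rdh10a (GeneID 562840), dhrs3a (GeneID 445083) and dhrs3b (GeneID 450050), and found by their GeneID in a table of 13274 zebrafish genes. All 4 were present, each as 1 record, and all 4 entered every test.

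RNA of whole zebrafish embryos was sequenced after treatment with SB505124, a small molecule that blocks ALK4, ALK5 and ALK7, the receptors through which Nodal, activin and TGF-beta act. The inhibitor was added at sphere stage, a late blastula stage (called sphere-treated below), or at 30% epiboly, when the cell sheet has begun to spread over the yolk (epiboly-treated). Embryos of each onset were frozen at shield stage (early gastrula), at tailbud stage (end of gastrulation) or at 7 somites, which gives 6 groups with 1 listed sample of 30 to 60 pooled embryos each. All 6 groups carry the inhibitor, no untreated group was analysed here, and the labels used here give neither dose nor strain. The study's stated interest was in genes behind neural tube closure.

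Retinol is oxidized to retinaldehyde by retinol dehydrogenases such as that of rdh10a, and retinaldehyde is oxidized irreversibly to retinoic acid by the aldehyde dehydrogenase of aldh1a2. The reductases of dhrs3a and dhrs3b turn retinaldehyde back into retinol and so draw substrate away from retinoic acid. In vertebrate embryos aldh1a2 is active in the trunk mesoderm next to the forming hindbrain and spinal cord, Cyp26 enzymes degrade retinoic acid towards the head, and the resulting gradient helps to set the positions of hindbrain and trunk nerve cells.

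The values are the authors' upper-quartile normalized means, rounded to whole numbers, and ± marks the standard error that the authors deposited beside each mean. These means are not per transcript length, so levels are compared between groups for 1 gene and not between genes. The spacing of the standard errors is that of 3 whole-number values per mean, and what separates these values, clutches or technical repeats, is not given in the sources used here. Sequencing depth is unknown, since only rounded means are at hand. The group means sum to between 15311014 and 21048013, and for records at 100 or more the standard error was typically 2.46% (epiboly-treated shield) to 5.18% (sphere-treated shield) of the mean, as a median per group. Markers of paraxial mesoderm (15 measured), endoderm (7), neural plate (10) and epidermis (8) were above 0 in all 6 groups. Sums of means over such a list, given below, lean on its highest genes. In epiboly-treated shield embryos krt4 stood at 58644 among the epidermis markers and tbx16 at 8572 among those of paraxial mesoderm. In the maternal and germ cell list pou5f3 stood at 45253 there. The sums thus do not measure the amount of a tissue.

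rdh10a, whose enzyme makes retinaldehyde from retinol, was at 1348 ± 67.6 at shield, 2085 ± 234 at tailbud and 784 ± 13.7 at 7-somite in epiboly-treated embryos. In sphere-treated embryos it was at 443 ± 144, 117 ± 43.8 and 596 ± 114. The sphere-treated mean thus lay below the epiboly-treated mean at each stage, at 32.9%, 5.61% and 76.0% of it. From the highest of the 6 means to the lowest, each lay farther from the next than their 2 standard errors together, except sphere-treated 7-somite and sphere-treated shield, which were 153 apart.

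For aldh1a2, whose enzyme makes retinoic acid itself, the epiboly-treated means were 1039 ± 48.7 at shield, 1209 ± 119 at tailbud and 578 ± 21.0 at 7-somite. The sphere-treated means were 767 ± 121, 83 ± 22.4 and 483 ± 141. Sphere-treated tailbud embryos held the lowest level, 6.87% of the epiboly-treated mean at that stage, against 73.8% at shield and 83.6% at 7-somite. At 7-somite the 2 onsets differed by 95, less than their standard errors together.

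dhrs3a, a retinaldehyde reductase gene, was listed at 0 ± 0.333 in both shield groups. In epiboly-treated embryos it was at 209 ± 7 at tailbud and 232 ± 6.33 at 7-somite, and in sphere-treated embryos at 16 ± 2.73 and 107 ± 30.6. It therefore reached 7.66% of the epiboly-treated mean at tailbud and 46.1% at 7-somite. At both of these stages the gap between onsets was wider than the standard errors together.

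dhrs3b, the paralog of dhrs3a, had a narrower course. It was at 519 ± 21.5, 1418 ± 187 and 865 ± 49.2 in epiboly-treated embryos at shield, tailbud and 7-somite, and at 514 ± 39.7, 885 ± 36.8 and 725 ± 23.7 in sphere-treated embryos. The shield means of both onsets differed by 5, and the sphere-treated tailbud mean lay 20 above the epiboly-treated 7-somite mean, both within the standard errors. Unlike its paralog, dhrs3b was well above 0 at shield, and the sphere-treated tailbud mean was still 62.4% of the epiboly-treated one.

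**Figure D1:**
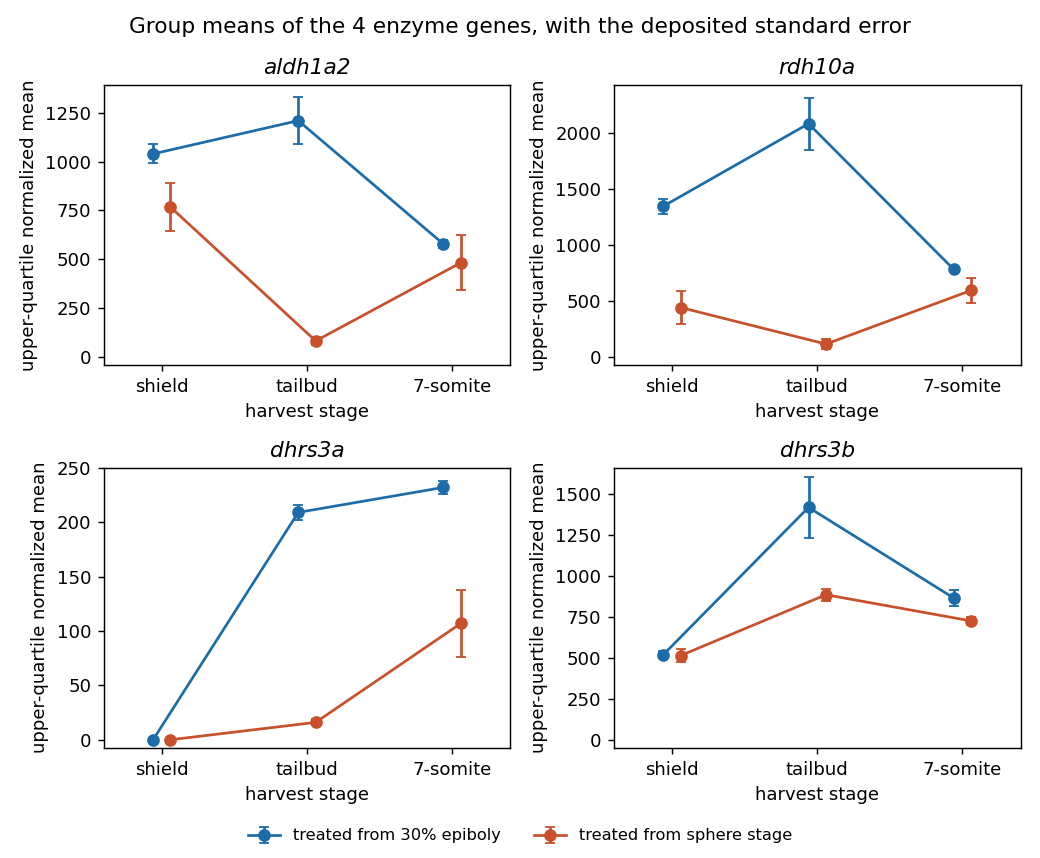
Upper-quartile normalized means (vertical axis, starting near 0) of the 4 genes at each harvest stage (horizontal axis), for embryos treated from 30% epiboly (blue) or from sphere stage (orange). Bars are the deposited standard errors. At tailbud aldh1a2, rdh10a and dhrs3a stand at 83, 117 and 16 in sphere-treated embryos, against 1209, 2085 and 209 in epiboly-treated ones, while dhrs3b stands at 885 and 1418.

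The first question was how the onset of inhibition altered these genes at each stage. At tailbud all 4 fell with the earlier onset, at shield rdh10a alone did, and at 7-somite dhrs3a alone did. In each stage's test, a limma-moderated comparison adjusted by Benjamini-Hochberg over all 13274 genes with a threshold of 0.05, genes called lower made up 21.3% of all genes at shield, 2.30% at tailbud and 13.5% at 7-somite. The count of 1 at shield, among the 3 genes with a level above 0 there, and the count of 1 of 4 at 7-somite are thus no result about these genes, while 4 of 4 at tailbud stand beside a share of 2.30%. The 4 were chosen with earlier results of these data known, so their count at tailbud is no independent result. Of 5 measured genes of retinoic acid synthesis 2 were called lower at tailbud, and of 6 of retinaldehyde reduction 2, all among these 4. Each log2 ratio below sets the sphere-treated mean, with 5 added, over the epiboly-treated mean, also with 5 added. In bulk embryos, fewer cells that express a gene and less RNA per cell cannot be told apart.

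At shield the log2 ratio of rdh10a was -1.59 ± 0.36 (fitted standard error, limma adjusted p = 0.0143), the 45th lowest of all genes. That of aldh1a2 was -0.44, with a 95% interval from -0.87 to -0.0004, and it did not pass the test (limma adjusted p = 0.0934). dhrs3b was at -0.01, with an interval from -0.27 to 0.25. No ratio is given for dhrs3a, which was listed at 0 in both groups. The rdh10a call was lost without moderation of the variance (adjusted p = 0.077, the highest over its 10 alternatives). All 12 measured maternal and germ cell markers also fell at this stage, from a summed mean of 59507 to 43069. Among the markers of other tissues, 6 of 7 for endoderm and 5 of 15 for paraxial mesoderm fell and 7 of 8 for epidermis rose, with epidermis sums of 111242 and 163382. Of the 10 neural plate markers 4 rose and 1 fell, where 21.8% of all genes were called higher and 21.3% lower. Every gene at hand has a highest group mean of at least 101. Among these markers btg4 and buc, of the maternal list, and mespaa, of paraxial mesoderm, reached that in epiboly-treated shield embryos alone. Their falls from that group are thus no independent result. The part of these tissues in the result for rdh10a was not tested. Whether both groups frozen at shield were of equal developmental age was not tested either, for rdh10a or for any other gene.

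At tailbud rdh10a had a log2 ratio of -4.10 ± 0.37 (limma adjusted p = 0.000337), aldh1a2 one of -3.79 ± 0.28 (limma adjusted p = 9.56e-05) and dhrs3a one of -3.35 ± 0.21 (limma adjusted p = 3.66e-05). They were the 13th, 19th and 29th lowest of the 13274 genes, and their 95% intervals overlapped one another. dhrs3b fell by 0.68 on the log2 scale, with an interval from -1.01 to -0.34 that does not reach those of the other 3 (limma adjusted p = 0.0468). This call ended with trimmed-mean (TMM) scaling of the groups, with genes below a highest mean of 500 left out, and with an equal prior variance or none (adjusted p up to 0.319 over its 10 alternatives). The calls of aldh1a2 and rdh10a ended without moderation of the variance, with adjusted p = 0.087 and 0.124, the highest over their 10 alternatives each.

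Markers of paraxial mesoderm, a tissue that expresses aldh1a2, were also lower at tailbud with the earlier onset. Of the 15 measured, 13 fell and 0 rose, with a list median of -2.89 against -0.01 for all genes. Their summed mean went from 14512 with the later onset to 4766 with the earlier. The sums were 16171 and 10895 at shield and 18034 and 16547 at 7-somite. None of the 15 was at 0 in any group, and the part of this tissue in the results for the 4 enzyme genes was not tested. Endoderm markers summed to 4553 and 3641 at tailbud, with 2 of 7 lower and 1 higher. The lower marker sox17 (246 to 7) reached the lowest kept level of 101 in epiboly-treated tailbud embryos alone. Its fall from that group is thus no independent result. Among the 10 neural plate markers 0 passed the limma-moderated test (1 at an unadjusted p under 0.05), with sums of 28023 and 28045. Of the 8 epidermis markers 5 rose, with sums of 200176 and 220875, where 0.738% of all genes were called higher and 2.30% lower.

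At 7-somite dhrs3a was still lower in sphere-treated embryos, with a log2 ratio of -1.08 ± 0.27 (limma adjusted p = 0.0204). This call was lost with an equal prior variance for all genes (adjusted p = 0.0589) and without moderation (0.169, the highest over its 9 alternatives). Beside it, 5 of 15 paraxial mesoderm markers and 3 of 7 endoderm markers fell, 1 and 0 rose, and 4 of 8 epidermis markers rose. Over all genes 9.46% were called higher at this stage and 13.5% lower. Of the 10 neural plate markers 2 rose and 2 fell, and the part of these tissues was not tested. The ratios of aldh1a2, rdh10a and dhrs3b were -0.26, -0.39 and -0.25, and none passed the test. Their 95% intervals ran from -0.87 to 0.35, from -0.81 to 0.02 and from -0.45 to -0.06, and the interval of aldh1a2 holds both its shield ratio and 0. Rescaling the groups to equal totals turned the balance of calls over all genes at this stage, from 1256 higher and 1796 lower to 1774 and 1179, while the ratios of these 4 genes stayed below 0.

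**Figure D2:**
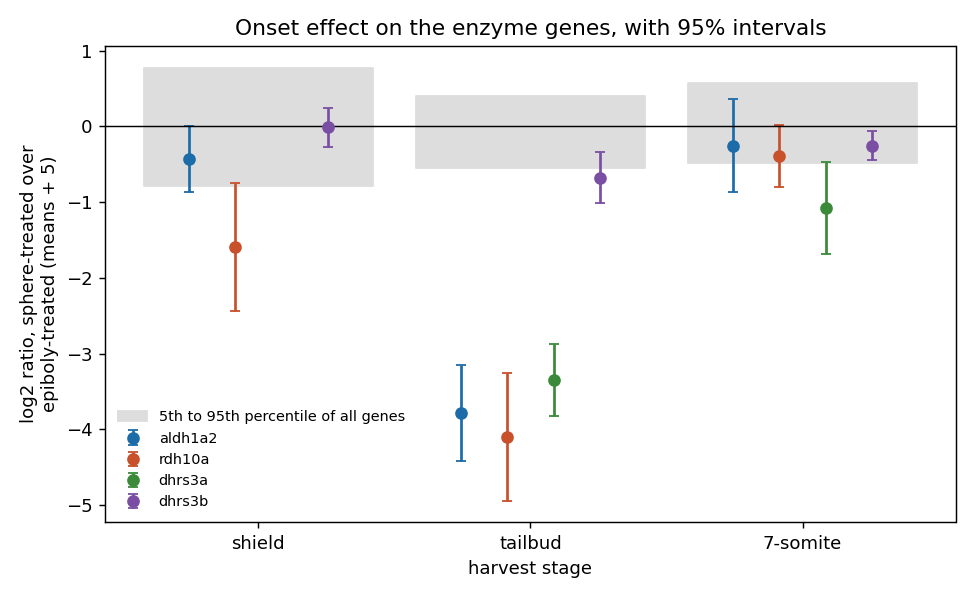
Log2 ratios of sphere-treated over epiboly-treated means (vertical axis) at each harvest stage, with 95% intervals from the limma-moderated fit. Grey bands span the 5th to 95th percentile of all 13274 genes, and dhrs3a is left out at shield, where both means are 0. The ratios of rdh10a, aldh1a2 and dhrs3a lie at -4.10, -3.79 and -3.35 at tailbud, below the band, which starts at -0.55.

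**Figure D3:**
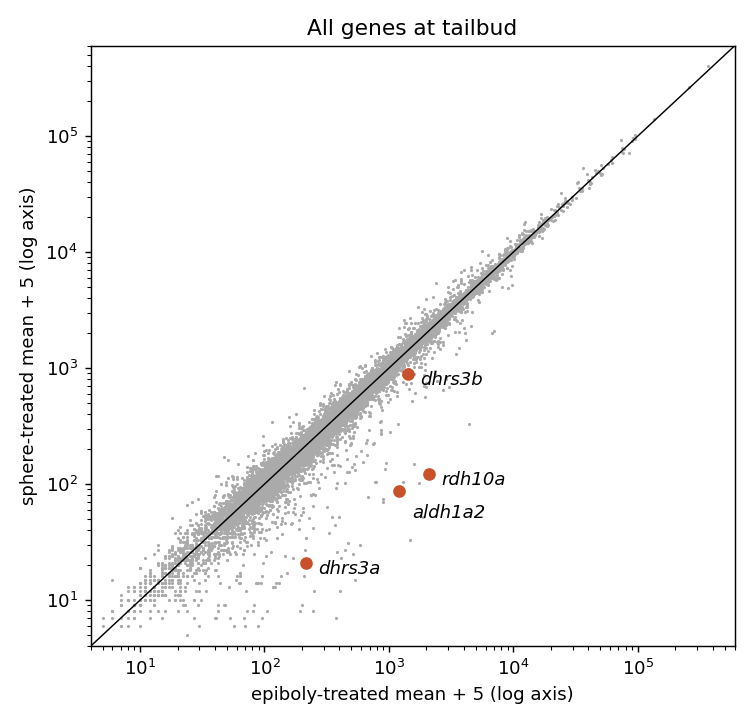
Each of the 13274 genes at tailbud by its epiboly-treated mean plus 5 (horizontal) and its sphere-treated mean plus 5 (vertical), both axes logarithmic, with the line of equality. The 4 enzyme genes are in orange. Those of rdh10a, aldh1a2 and dhrs3a lie far below the line, and dhrs3b lies just below it.

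Tested directly, the onset effect differed between stages for each gene. Between shield and tailbud it changed by -3.35 ± 0.37 on the log2 scale for aldh1a2 (limma adjusted p = 0.000174), by -2.50 ± 0.57 for rdh10a (limma adjusted p = 0.011) and by -0.66 ± 0.20 for dhrs3b (limma adjusted p = 0.0334). The difference for dhrs3a also passed (limma adjusted p = 0.000105), but its shield groups were both at 0. In this comparison 13.6% of all genes were called lower and 9.36% higher. Without moderation rdh10a (adjusted p = 0.0526) and dhrs3b (0.0866) were not called, the highest values over 10 alternatives each. Between tailbud and 7-somite the effect returned towards 0 by 3.71 ± 0.48 for rdh10a, 3.53 ± 0.46 for aldh1a2 and 2.27 ± 0.38 for dhrs3a (limma adjusted p = 0.00141, 0.00141 and 0.00627), where 1.79% of all genes were called higher and 1.57% lower. With equal totals the counts over all genes went from 238 higher and 209 lower to 337 and 101, and without moderation the call of dhrs3a was lost (adjusted p = 0.0543, the highest over its 9 alternatives). Only 2 genes of the 13274 had a larger change in this direction than rdh10a, and 3 a larger one than aldh1a2. For dhrs3b that change was 0.42, with an interval from 0.02 to 0.83, and it did not pass (limma adjusted p = 0.228).

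Between shield and 7-somite the onset effects of aldh1a2 and dhrs3b were not shown to differ (limma adjusted p = 0.737 and 0.208). rdh10a was less lowered at 7-somite than at shield, by 1.2 ± 0.43 (limma adjusted p = 0.0433). That call ended under 3 of its 10 alternatives, with adjusted p up to 0.12. For dhrs3a the difference of -1.08 passed (limma adjusted p = 0.0496) against shield means at 0, and was lost under 5 of 9 alternatives, with adjusted p up to 0.26. Of all genes, 16.0% were called higher here and 22.0% lower, and equal totals turned the counts from 2120 and 2926 to 2837 and 2098.

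The second question was how each gene moved from stage to stage within an onset. From shield to tailbud rdh10a rose under the later onset, and both synthesis genes fell under the earlier one. In epiboly-treated embryos rdh10a rose by 0.63 ± 0.13 on the log2 scale (limma adjusted p = 0.00109), and aldh1a2 was at 0.22 ± 0.11 (limma adjusted p = 0.106). In sphere-treated embryos aldh1a2 fell by 3.13 ± 0.31 (limma adjusted p = 5.81e-05) and rdh10a fell by 1.88 ± 0.49 (limma adjusted p = 0.00881). The rise of rdh10a was not called with the spread pooled over all 6 groups (adjusted p = 0.131, the highest over its 10 alternatives), nor was its fall without moderation (0.0836, likewise the highest).

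Both reductase genes rose over the same step under either onset. dhrs3b gained 1.44 ± 0.14 under the later and 0.78 ± 0.12 under the earlier onset (limma adjusted p = 7.35e-06 and 0.000486). dhrs3a went from a listed 0 to 209 in the former and to 16 in the latter (limma adjusted p = 4.04e-09 and 0.00143). In this step 32.9% of all genes were called higher and 48.6% lower under the later onset, and 20.4% and 44.5% under the earlier. The scale matters here, since the median of all genes was -0.19 and -0.23 and moved up by 0.28 and 0.31 when groups were rescaled to equal totals, or by 0.21 and 0.23 with TMM factors. With either rescaling aldh1a2 also rose in epiboly-treated embryos, by 0.51 and 0.43, and no direction given for this step turned. With equal totals the counts over all genes turned from 4361 higher and 6447 lower to 5877 and 4842 under the later onset, and from 2710 and 5901 to 4589 and 3568 under the earlier.

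In the paraxial mesoderm list 10 of 15 markers rose and 5 fell from shield to tailbud under the later onset, and 5 rose and 5 fell under the earlier (medians 2.56 and -0.43), and their part in these steps was not tested. The fall of mespaa under the later onset is no independent result, since it reached 101 in epiboly-treated shield embryos alone.

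From tailbud to 7-somite aldh1a2 and rdh10a fell under the later onset and rose under the earlier one. In sphere-treated embryos aldh1a2 rose by 2.47 ± 0.40, rdh10a by 2.30 ± 0.42 and dhrs3a by 2.42 ± 0.35 (limma adjusted p = 0.00145, 0.00246 and 0.000842). Over the same step 14 of the 15 paraxial mesoderm markers rose and 0 fell in these embryos, with a median of 2.66, against 9 and 4 with a median of 0.56 under the later onset. Their part in the enzymes' rises was not tested. In epiboly-treated embryos aldh1a2 fell by 1.06 ± 0.11 and rdh10a fell by 1.41 ± 0.11 (limma adjusted p = 2.6e-05 and 3.94e-06), while dhrs3a was at 0.15 ± 0.11 (limma adjusted p = 0.295). Under the later onset dhrs3b fell by 0.71 ± 0.14 (limma adjusted p = 0.00174), and under the earlier it fell by 0.29 ± 0.09 (limma adjusted p = 0.0255). The former call was lost without moderation (adjusted p = 0.0645) and the latter under 3 alternatives (up to 0.208), among them equal totals, which moved the median of all genes by 0.14. Over all genes 23.1% were called higher and 24.9% lower under the later onset, and 25.1% and 27.7% under the earlier. With equal totals those counts turned from 3069 and 3299 to 3678 and 2526, and from 3334 and 3671 to 4478 and 2512.

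The profiles over the 6 groups can be compared as root mean square differences of log2(mean + 5), each centred on its own mean. This is a description over 6 points that share their libraries. Among genes with a symbol other than a clone name, the one most like both aldh1a2 and rdh10a was aplnrb, an apelin receptor gene of the mesoderm-forming margin, at 0.44 and 0.49. Next for each came the other of the pair, at 0.49, where the median of all genes was 1.28 from aldh1a2 and 1.36 from rdh10a. After it came ism1, which encodes a secreted protein, for aldh1a2 (0.50) and osr1, a regulator of intermediate mesoderm, for rdh10a (0.54). At shield, tailbud and 7-somite aplnrb itself stood at 1207, 941 and 625 under the later onset and at 534, 148 and 600 under the earlier.

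dhrs3a was most like cdh11, a cadherin gene (0.27), then the hindbrain gene hoxb1a (0.35) and smyd1b, a muscle methyltransferase gene (0.47), against a median of 2.46. These 3 genes were also low at shield, at 2 to 19, and had higher means at the later stages of each onset. dhrs3b was most like nalf2 (0.14), skap1 (0.14) and sp5a (0.16), a transcription factor gene that responds to Wnt signals, against a median of 0.70. Of these, nalf2 and skap1 reached the lowest kept level of 101 in epiboly-treated tailbud embryos alone, the group where dhrs3b also had its highest mean. The likeness of nalf2 and skap1 to dhrs3b is thus no independent result. The paralogs dhrs3a and dhrs3b lay 1.99 apart, farther than rdh10a and aldh1a2.

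Of the 59 other retinoic acid genes listed, 37 were measured. At tailbud 10 of these fell and 0 rose, with a median of -0.32 against -0.01 for all genes. At shield 9 rose and 4 fell (median 0.04 against 0.01), and at 7-somite 5 rose and 4 fell (median -0.12 against -0.02). Genes called higher made up 21.8% of all genes at shield, 0.738% at tailbud and 9.46% at 7-somite. Those called lower made up 21.3%, 2.30% and 13.5%.

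The 3 other measured genes of synthesis passed no test at tailbud. rdh10b, the paralog of rdh10a, had tailbud means of 1713 ± 47.9 under the later and 1833 ± 206 under the earlier onset (log2 ratio 0.10, 95% interval from -0.19 to 0.38, limma adjusted p = 0.77). Its means were 5229 ± 69.2 and 5381 ± 86.5 at shield, and 759 ± 17.4 and 650 ± 45.8 at 7-somite. Thus rdh10b fell at every step of both onsets and passed no onset test, whereas rdh10a had its highest mean at tailbud under the later onset and its lowest there under the earlier. Of dhrs9 and sdr16c5a, dehydrogenase genes of the same superfamily, only sdr16c5a passed an onset test, rising at 7-somite from 483 ± 19.6 to 637 ± 48.4. At tailbud dhrs9 was at 333 ± 28.3 under the later and 228 ± 31.7 under the earlier onset (log2 ratio -0.54). Its limma adjusted p there ran from 0.0375 to 0.438 over 10 alternatives. Among other reductases, rdh12 (102 ± 6.23 to 71 ± 6.81) and rdh12l (640 ± 4.10 to 500 ± 40.8) fell at shield, and rdh14a and rdh14b passed no onset test. Every gene at hand has a highest group mean of at least 101. rdh12 reached that in epiboly-treated shield embryos alone, so its fall from that group is no independent result.

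Of the 3 degradation genes of the Cyp26 family 0 passed the limma-moderated test at tailbud, and 1 was at an unadjusted p under 0.05. Their log2 ratios there ran from -1.18 to 0.37, with a median of -0.37. cyp26a1, the main retinoic acid hydroxylase gene of the gastrula, rose at shield from 1853 ± 52.9 to 2910 ± 442 (limma adjusted p = 0.0233) and at 7-somite from 1388 ± 106 to 1993 ± 202 (limma adjusted p = 0.018), by log2 ratios of 0.65 and 0.52. Both calls ended without moderation (adjusted p = 0.0968 and 0.158, the highest over its alternatives), and the second also with an equal prior variance. At tailbud it was at 6023 ± 425 and 7789 ± 775, which did not pass (limma adjusted p = 0.21). Over the 3 stages cyp26b1 stood at 14, 70 and 595 with the later onset and at 19, 53 and 537 with the earlier, and cyp26c1 at 70, 485 and 1420 and at 65, 212 and 1411. Neither passed an onset test, though both had a lower tailbud mean with the earlier onset. The tailbud means of cyp26c1 carried standard errors of 54.6 and 124.

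Of 8 measured genes of retinoid storage and transport 0 passed the limma-moderated test at tailbud, and 3 were at an unadjusted p under 0.05. crabp2b, which encodes a cytoplasmic retinoic acid-binding protein, rose at shield from 3844 ± 192 to 10730 ± 1656 and at 7-somite from 1618 ± 57.9 to 2037 ± 157. stra6, the gene of a membrane receptor for retinol uptake, fell at shield from 61 ± 4.10 to 23 ± 7.54. At 7-somite the retinol carrier gene rbp4 rose from 125 ± 8.51 to 288 ± 106 and rbp5, of cellular retinol binding, fell from 224 ± 30.7 to 133 ± 10.5. Over all genes 21.8% were called higher and 21.3% lower at shield, and 9.46% and 13.5% at 7-somite. Over the alternatives the adjusted p ran up to 0.0474 for crabp2b and 0.0883 for stra6 at shield. At 7-somite it ran up to 0.171 for crabp2b, 0.229 for rbp4 and 0.127 for rbp5.

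Of the 10 measured receptor and corepressor genes 5 rose at shield and 0 fell, and at tailbud 3 fell and 0 rose. Over all genes 21.8% were called higher at shield and 2.30% lower at tailbud. The receptor genes raraa and rarab were called in opposite directions at these stages. raraa was higher at shield (430 ± 13.1 to 542 ± 24.7) and lower at tailbud (1134 ± 49.2 to 730 ± 51.8), and rarab went from 2029 ± 26.6 to 2386 ± 122 and from 2594 ± 90.0 to 1798 ± 44.6. The difference between the stages passed for both, at -0.96 and -0.76. rarga rose at shield (56 ± 1.2 to 156 ± 37.0) and at 7-somite (1634 ± 0.333 to 2174 ± 84.3). Of the partner receptor genes, rxrgb rose at shield (42 ± 5.03 to 85 ± 15.5) and fell at 7-somite (131 ± 9.07 to 83 ± 10.4), and rxrga fell at tailbud (47 ± 1.73 to 21 ± 0). rxraa, rxrab, rxrba and rxrbb passed no onset test, and the corepressor gene ncor1 (5307 ± 86.1 to 6028 ± 189) rose at shield.

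Of 9 measured genes listed as responding to retinoic acid in hindbrain and trunk, 7 fell at tailbud and 0 rose, all 7 at least 2-fold. Genes called lower made up 2.30% of all genes there. hoxb1a, of the fourth hindbrain segment, had a log2 ratio of -2.67 (211 ± 10.3 to 29 ± 8.74, limma adjusted p = 0.00114). That of meis3, a Hox cofactor gene, was -1.64 (2425 ± 58.8 to 772 ± 107, limma adjusted p = 0.000337). The hindbrain regulator hnf1ba went from 1993 ± 106 to 738 ± 104, hoxb1b from 3677 ± 169 to 1478 ± 147, hoxb5a from 62 ± 7.77 to 15 ± 2.03, hoxb5b from 122 ± 17.9 to 29 ± 12.4 and hoxb6a from 37 ± 4.36 to 11 ± 3.18. hoxa4a (45 ± 2.19 and 21 ± 6.94) and hoxd4a (81 ± 11 and 64 ± 8.37) did not pass. At 7-somite, where 13.5% of all genes were called lower, 2 of the 9 fell. hoxb1a went from 365 ± 20.8 to 231 ± 44.3 and hoxb5a from 120 ± 7.42 to 70 ± 13.1. hoxb5a reached the lowest kept level of 101 in epiboly-treated 7-somite embryos alone, so its fall from that group is no independent result. At shield hoxb1b (31 ± 1.2 to 126 ± 45.6) and meis3 (126 ± 6.89 to 204 ± 25) rose and hnf1ba (1075 ± 53.4 to 756 ± 69.7) fell. Over all genes 21.8% were called higher at shield and 21.3% lower. Without moderation of the variance none of the 7 tailbud calls held, with adjusted p from 0.11 for hoxb1b to 0.324 for hoxb5b, the highest over each gene's alternatives, and those of hoxb5b and hoxb6a also ended with a pseudocount of 1 or an equal prior variance. Paraxial mesoderm markers fell at tailbud beside these genes too, as given above. Whether these falls have to do with the 4 enzyme genes was not tested.

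**Figure D4:**
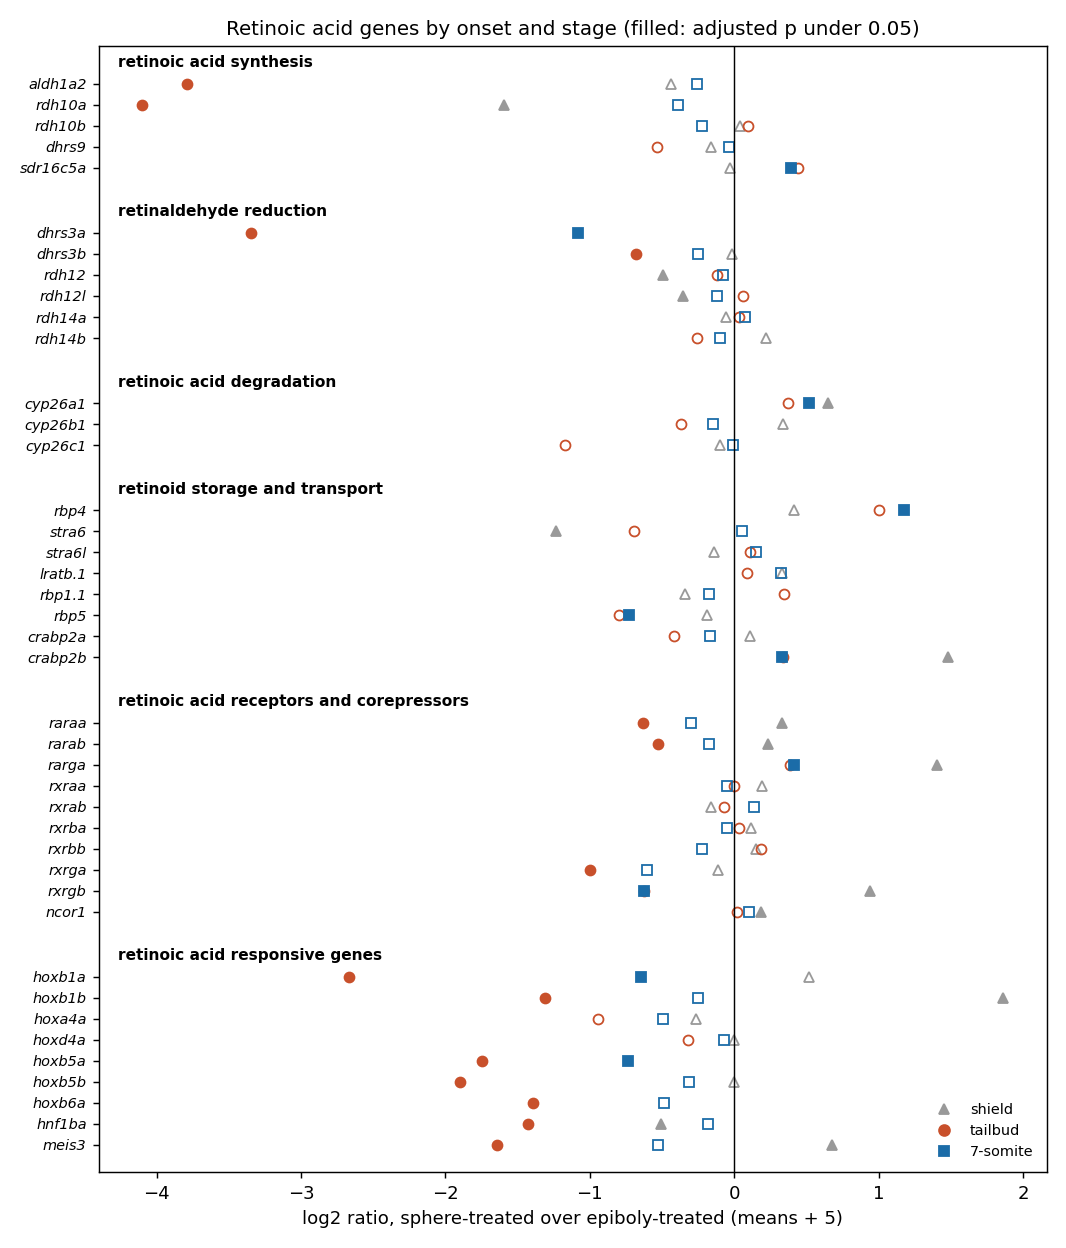
Log2 ratio of sphere-treated over epiboly-treated means (horizontal axis) for the 41 measured retinoic acid genes, grouped by role, at shield (grey triangles), tailbud (orange circles) and 7-somite (blue squares). Filled symbols passed the limma-moderated test, and genes at 0 in both groups are left out at that stage. The tailbud values of rdh10a, aldh1a2 and dhrs3a lie farthest to the left, at -4.10, -3.79 and -3.35, followed by hoxb1a at -2.67.

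In the authors' deposited table the change ratio of epiboly-treated over sphere-treated means, with 1 added to each mean, at tailbud is 17.7 for rdh10a, 14.4 for aldh1a2, 12.4 for dhrs3a and 1.6 for dhrs3b. Of these, that table marks dhrs3a alone as differentially expressed at a 50% change. It marks rdh10a at shield (ratio 3.04) and dhrs3a at 7-somite (ratio 2.16) and no other of the 4 genes at any stage.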

How the data were processed

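The authors' table holds, per the file headers, a mean for each group after upper-quartile normalization, as a whole-number score, a standard error for each as a score on the same scale, and a ratio of epiboly-treated over sphere-treated means with a yes or no call per stage. The submitters' processing notes list DESeq 1.6.1 without saying what it was used for. The sources used here name no aligner, counter or genome build, and no coordinates or sequences are printed. Every record has a highest group mean of at least 101.

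Of 13321 records, 12182 were named by GeneID and 42 by accession from RefSeq's table of assembly GRCz12tu, and 1097 kept their accession. Keeping the record with the highest mean per symbol left 13274 genes. Of 12057 standard errors above 0 and up to 5, 12057 lie on the grid of 3 whole numbers and 677 on that of 2, within 0.001, so 3 values per mean were assumed. Values were taken as log2(mean + 5), which understates changes of low genes. Variances came from the deposited standard errors by the delta method and were moderated with limma 3.58.1 (squeezeVar, R 4.3.3), with a prior that follows the mean level, a choice made after seeing the table. Tests are two-sided and were tried on simulated data. There every gene had the same relative spread, so genes with a wide spread, such as rdh10a and aldh1a2 at tailbud, were not covered. p-values measure only the spread among these values, which may be technical.

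Genes named are the 4 enzymes, the degradation and receptor genes, other listed retinoic acid genes that passed an onset test, and the 3 nearest profiles of each enzyme. rdh10b, dhrs9, rdh14a, rdh14b, hoxa4a, hoxd4a and the endoderm markers foxa2, sox17 and cxcr4a were named after their values were seen. So were the markers btg4, buc, mespaa, krt4, tbx16 and pou5f3. One listed item is not reported here and was left out of its list's counts. The enzymes and lists were chosen with earlier results of these data known. Alternatives were pseudocounts of 1 and 20, rescaled groups, other variance models, 2 values per mean, a filter at 500 and every record. No per-sample column was left out.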

Additional observations from a re-analysis of the deposited data

Results flagged for a closer look

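The effect of the earlier onset differed between stages for each of the 4 genes, by a test of the difference itself. From shield to tailbud the log2 ratio of sphere-treated over epiboly-treated means changed by -3.35 for aldh1a2, by -2.50 for rdh10a, by -3.35 for dhrs3a and by -0.66 for dhrs3b (limma adjusted p = 0.000174, 0.011, 0.000105 and 0.0334). The value of dhrs3a equals its tailbud ratio, since both shield means are listed at 0. From tailbud to 7-somite it changed by 3.53 for aldh1a2, 3.71 for rdh10a and 2.27 for dhrs3a (limma adjusted p = 0.00141, 0.00141 and 0.00627). From shield to 7-somite it changed by 1.2 for rdh10a and by -1.08 for dhrs3a (limma adjusted p = 0.0433 and 0.0496), where the shield term of dhrs3a is again that of means at 0. These 9 are the differences that passed of 12 tested, and 2 of them have shield means at 0. Among all genes 13.6% were called lower and 9.36% higher in the first pair of stages, 1.57% and 1.79% in the second, and 22.0% and 16.0% in the last. Under some alternatives the calls end for rdh10a and dhrs3b in the first pair, dhrs3a in the second, and both rdh10a and dhrs3a in the last.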

How the results depend on the processing

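Of the 117 values of the 4 genes' onset effects under alternatives, 106 kept direction and side of the threshold, and 0 reversed. Among those 106, 9 are of dhrs3a at shield, where both means are at 0 and no direction or call could change. Without moderation of the variance the calls ended for aldh1a2 (-3.79) and rdh10a (-4.10) at tailbud, rdh10a at shield (-1.59), dhrs3a at 7-somite (-1.08) and dhrs3b at tailbud (-0.68). With a prior variance equal for all genes, an alternative chosen after seeing the data, dhrs3a at 7-somite (-1.08, adjusted p = 0.0589) and dhrs3b at tailbud (-0.68, 0.139) were not called. dhrs3b at tailbud was also not called with TMM factors (-0.66) or a highest mean of at least 500 (-0.68). That filter removes dhrs3a. With 2 values behind each mean, aldh1a2 at shield (-0.44) and rdh10a at 7-somite (-0.39) were called lower. Of 273 steps and stage differences of the 4 genes 252 kept their call and 0 reversed. Among 1053 values of other retinoic acid genes 979 were unchanged in call and direction, 52 lost and 17 gained a call. Of the 32 onset calls of these genes 29 were lost without moderation, 11 with an equal prior variance, 5 with pooled spread and 3 or fewer under each other alternative. Another 5 values reversed, all at 7-somite and not called. With equal totals dhrs9 came to 0.026, cyp26c1 to 0.053, rxraa to 0.010 and rxrba to 0.011, and cyp26c1 came to 0.010 with TMM factors.

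Counts of genes called higher and lower moved as follows. Without moderation they were 861 and 574 at shield, 3 and 39 at tailbud, and 245 and 452 at 7-somite. With a highest mean of at least 500, fewer genes being tested, they were 1914 and 1683 at shield, 165 lower at tailbud and 830 higher at 7-somite. The same filter gave 2093 and 3977 from shield to tailbud in epiboly-treated and 1350 and 3907 in sphere-treated embryos, and 1470 and 1485 higher from tailbud to 7-somite. At tailbud the counts were 316 and 623 with the spread pooled over all 6 groups, 339 and 575 with 2 values per mean, and 33 higher with an equal prior variance, which gave 785 and 1169 at 7-somite. Equal totals gave 1179 lower at 7-somite, and 4589 and 3568 from shield to tailbud in sphere-treated embryos. Apart from the filter, the cause was not tested. No paired analysis was possible because the table holds group means without replicate numbers, and no replicate could be left out.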

Other observations

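At tailbud 46 records of the authors' deposited table have an epiboly over sphere ratio of at least 10, and that table gives 27 of them a yes call. rdh10a and aldh1a2 are among the other 19. The relative standard error of the sphere-treated tailbud mean is 37.5% for rdh10a, 27.0% for aldh1a2 and 17.1% for dhrs3a, and only dhrs3a of these has a yes call in the authors' deposited table. The sphere-treated means of aldh1a2 were the more variable at every stage, with relative standard errors of 15.8%, 27.0% and 29.2% at shield, tailbud and 7-somite against 4.69%, 9.85% and 3.63% in epiboly-treated embryos.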
